A study of Mus musculus with 38 samples.

Results

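The motile cilia programme was followed through 40 genes, which were chosen by name as regulators of multiciliated cells or as parts of the motile cilium. No measured value entered the rule, but earlier results of these data were known when the genes were chosen. All 40 were found among the 25965 genes of the RNA table and the 25888 genes of the promoter table. Of these, 33 carried the listed symbol and 7 were matched by Ensembl identifier, because the tables name Dnah1, Dnah2, Dnah5, Dnah6, Dnah7b and Dnah11 by the older prefix Dnahc and Pifo as 1700027A23Rik. The row the table calls Spag6 (ENSMUSG00000022783) carries the name Spag6l in the later annotation.

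The genes were measured in neural stem and progenitor cells (NSPCs) grown as neurospheres from the subventricular zone of male C57BL/6JBabr mice aged 3 months (young adult) or 18 months (aged). Each age had 3 derivations, numbered 1 to 3 in the labels, each pooled from 5 mice and made on a different day, and cells were taken at passage 2. RNA was also sequenced from 1 young adult and 1 aged culture of C57BL/10 mice kept in another facility, so strain and facility cannot be told apart. No culture carried a transgene or received a treatment that the labels name. The TSS windows were measured by native ChIP for H3K4me3, H3K27me3 and Input, given as 1 value per age, and by bisulphite (BS) and oxidative bisulphite (oxBS) sequencing of each derivation. The same mice were not followed over time, and a neurosphere holds stem cells beside their early progeny.

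Motile cilia beat by sliding their outer doublet microtubules, a movement driven by dynein arms and governed by radial spokes, a central pair of microtubules and a ruler that sets the repeat along the axoneme. In the adult brain such cilia stand in bundles on the ependymal cells that line the ventricles, next to the stem cells of the subventricular zone, which carry a lone primary cilium. Foxj1 and the RFX factors switch on the genes of the axoneme, and RFX proteins bind the X-box, an inverted repeat found near the start of many cilia genes.

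The X-box was searched on both strands in reference promoters of 250 bases before to 50 bases after each gene start (RefSeq, GRCm38.p6), which held 33 of the 40 genes. It was present in 4 of these 33 genes, Ccno, Kif9, Hydin and Spag16, and in 0.796% of the 27025 genes with a promoter. The shorter RFX motif GTTGCC, which an X-box can contain, lay in 18 of the 33 genes and in 14.1% of all genes. The forkhead motif TGTTTAC lay in 3 of them, Ak7, Mlf1 and Stoml3, and in 4.05% of all genes. Such a match describes the letters and does not show that a factor was bound. The 250 bases before the start are shown for the 4 genes with an X-box, which stands in capitals, because they divide into 2 genes that were expressed and varied between cultures (Ccno and Kif9) and 2 that were hardly read (Hydin and Spag16). All 4 lie on the plus strand, Ccno at chr13:112987552-112987801, Kif9 at chr9:110476744-110476993, Hydin at chr8:110266727-110266976 and Spag16 at chr1:69826720-69826969.
Ccno: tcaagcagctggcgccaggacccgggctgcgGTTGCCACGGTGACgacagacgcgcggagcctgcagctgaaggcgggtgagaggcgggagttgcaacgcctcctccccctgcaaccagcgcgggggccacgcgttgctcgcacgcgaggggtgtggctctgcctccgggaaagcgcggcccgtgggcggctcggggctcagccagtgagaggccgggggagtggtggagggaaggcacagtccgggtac
Kif9: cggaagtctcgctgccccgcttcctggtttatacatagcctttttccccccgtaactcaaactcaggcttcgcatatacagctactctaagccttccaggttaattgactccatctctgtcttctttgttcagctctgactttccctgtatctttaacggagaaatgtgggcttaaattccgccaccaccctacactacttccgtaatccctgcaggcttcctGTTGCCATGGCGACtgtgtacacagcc
Hydin: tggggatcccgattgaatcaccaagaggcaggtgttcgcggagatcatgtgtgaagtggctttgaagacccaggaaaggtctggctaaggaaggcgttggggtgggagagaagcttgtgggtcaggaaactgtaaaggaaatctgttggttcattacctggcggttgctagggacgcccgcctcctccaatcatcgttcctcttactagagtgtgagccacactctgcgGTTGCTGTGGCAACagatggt
Spag16: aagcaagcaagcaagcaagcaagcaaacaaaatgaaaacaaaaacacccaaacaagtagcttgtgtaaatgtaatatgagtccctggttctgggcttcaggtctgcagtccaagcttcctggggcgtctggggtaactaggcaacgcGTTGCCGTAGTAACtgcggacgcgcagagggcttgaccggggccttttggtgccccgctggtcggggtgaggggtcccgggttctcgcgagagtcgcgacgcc
The X-box began 219 bases before the start in Ccno, 27 in Kif9, 21 in Hydin and 103 in Spag16. Kif9 has another reference start, and the same X-box began 9 bases after that one.

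RNA libraries held 16952483 to 41053986 reads, and 65.5% to 69.3% of them lay on genes. Values are log2 RPM, the log2 of reads scaled to the size of the library. Over the 40 genes the libraries held 3253 to 9522 reads. The NSPC genes Nes, Egfr and Sox2 had 23427 to 60515, 4188 to 12002 and 2189 to 6292 reads per library. Among the 12 ependymal markers Foxj1 had 1077 to 3599 reads, while Sntn and Tmem212 had at most 1 read in any library. Others that NSPCs or astrocytes also express were abundant, such as Vim (61399 to 148432 reads) and Aqp4 (1091 to 3502). Of the 8 choroid plexus markers, Ttr had at most 2 reads and Kl none, while Otx2 had 25 to 82 and Kcnj13 3 to 22. Of the 6 microglial markers, Ptprc had no read and Aif1, Cx3cr1 and Tmem119 at most 1, while Csf1r had 95 to 230 and P2ry12 6 to 26. Among the factors that start multiciliogenesis, Mcidas had at most 1 read and Gmnc at most 2, and Deup1, which builds the centriole-producing deuterosome, had none. These do not stand for all the further motile cilia genes described below. Those also include Ccdc78, which was read often enough to be tested, and Trp73 and Myb, whose reads are not given here. A count of 0 allowed up to 0.0731 to 0.177 RPM, by counting error alone. The label ependymal is used here for the genes, and whether the cultures held ependymal cells was not tested.

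Of the 40 genes, 28 reached a mean log2 RPM of at least -2 over the 6 C57BL/6JBabr libraries and were tested. Scaled to exon length, Foxj1 stood highest at 23.4 RPM per kilobase, followed by the radial spoke gene Rsph9 at 4.55, Tppp3, a tubulin-binding protein, at 4.28, Rfx3 at 3.94 and Rfx2 at 3.34. The dynein heavy chains were low on the same scale, from 0.0249 for Dnah5 to 0.637 for Dnah7b among those tested. Foxj1 alone made up 24.4% to 38.5% of the summed RPM of the 40 genes. The 12 genes left out had 0 to 19 reads in any library. They were Dnah6 (0 or 1 read), Efcab1 and Spag16 (0 to 2), Armc4 (0 to 3), Stoml3 (0 to 4), Hydin (1 to 5), Ak7 (0 to 6), Ak8 (2 to 8), Pifo (0 to 9), Lrrc6 (1 to 10), Spag6 (1 to 19) and Ccdc113 (4 to 19). They include 3 of the 5 central pair genes, so the programme was covered unevenly.

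**Figure D1:**
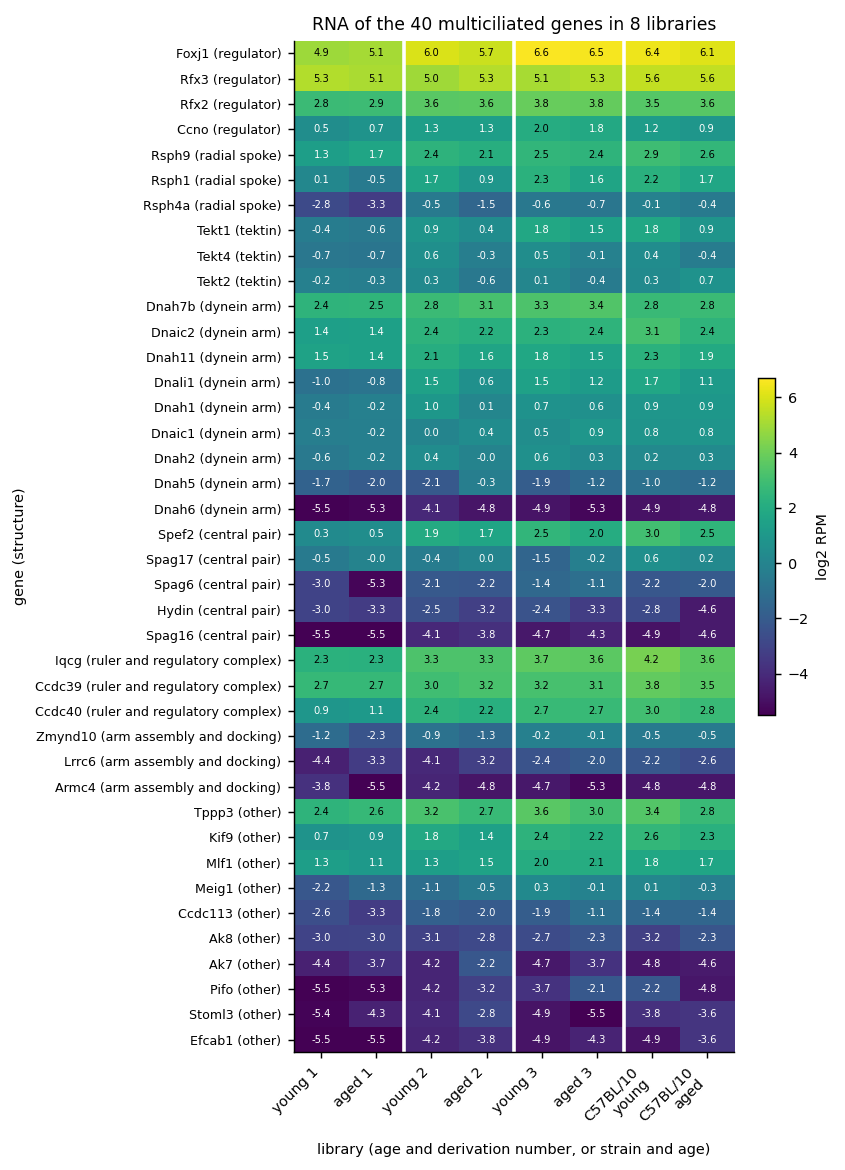
RNA level (log2 RPM, colour and printed number) of each of the 40 genes, ordered by structure, in the 6 C57BL/6JBabr libraries, grouped by derivation number, and the 2 C57BL/10 libraries. Foxj1 runs from 4.9 in the young adult library of number 1 to 6.6 in that of number 3, while Rfx3 stays between 5.0 and 5.6.

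The derivations of 1 number differed from those of another across most of the programme. The young adult and aged libraries of derivation 1 were the lowest, those of derivation 3 the highest, and derivation 2 lay between them or near derivation 3. The summed RPM of the 40 genes was 124 and 125 in the libraries of derivation 1, 192 and 182 in derivation 2, and 253 and 241 in derivation 3 (young adult first). Without the abundant Foxj1 and Rfx3 the sums were 54.6 and 56.5, 96.8 and 89.2, and 121 and 111. Between derivations, 19 of the 28 tested genes passed an F test with age as a covariate (limma, adjusted p under 0.05), and all 19 were higher in derivation 3 than in derivation 1. Of all 14858 genes tested, 22.0% passed, and 13.4% passed and were higher in derivation 3. The median difference between derivations 3 and 1 was 0.97 on the log2 scale over the 28 genes and 0.02 over all genes. With no filter on low values, 20 of the 40 genes passed, against 17.4% of all genes, and edgeR on whole reads called 20 of the 28, against 24.2%. Quantile normalization called 16 (without Ccdc39, Zmynd10 and Mlf1), DESeq2 14 (without these, Rsph4a and Meig1) and limma without the mean-variance trend 12 (without Rsph9, Dnah7b, Ccdc39, Zmynd10, Tppp3, Mlf1 and Meig1), where all genes called fell from 3263 to 698. The share of all genes called by quantile normalization or DESeq2 is not given here, so the 16 and the 14 have no background beside them. Each number holds 1 young adult and 1 aged library, and the sources used here do not state whether both were derived on 1 day. In bulk RNA, fewer cells expressing a gene and less RNA per cell cannot be told apart.

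Among the regulators, Foxj1 changed most. It read 4.92, 5.99 and 6.60 log2 RPM in young adult derivations 1 to 3 and 5.08, 5.72 and 6.51 in the aged ones. The 3 numbers did not overlap, and derivation 3 was 2.95-fold above derivation 1 (log2 difference 1.56 ± 0.10, SE, adjusted p = 1.31e-05, limma). Ccno, the cyclin needed for centriole amplification, read 0.50, 1.34 and 2.04 in the young adult and 0.74, 1.34 and 1.85 in the aged libraries. It rose by the same order of derivations, 2.5-fold from 1 to 3 (1.32 ± 0.20, adjusted p = 0.0025, limma). Rfx2 read 2.80, 3.57 and 3.85 in the young adult and 2.85, 3.64 and 3.84 in the aged libraries, with derivations 2 and 3 close together and derivation 1 apart (1.02 ± 0.11, adjusted p = 0.000272). The fourth regulator stood apart from these. Rfx3, which also serves primary cilia, read 5.28, 4.98 and 5.13 in the young adult and 5.13, 5.34 and 5.30 in the aged libraries, and its numbers overlapped (0.01 ± 0.11, adjusted p = 0.927).

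All 3 radial spoke genes passed. Rsph1, part of the spoke head, read 0.13 and -0.51 log2 RPM in derivation 1 (young adult, then aged), 1.67 and 0.91 in derivation 2 and 2.28 and 1.63 in derivation 3. Derivation 1 lay below both others, and derivation 3 was 4.43-fold above it (2.15 ± 0.21, adjusted p = 0.000115, limma). Rsph4a, another head protein, read -2.77 and -3.32 in derivation 1, -0.50 and -1.47 in derivation 2 and -0.62 and -0.72 in derivation 3. Derivations 2 and 3 overlapped and both lay above derivation 1, by 2.38 ± 0.47 for derivation 3 (adjusted p = 0.00688). Rsph9 read 1.33 and 1.66, 2.39 and 2.14, and 2.51 and 2.43 in derivations 1 to 3, a smaller step on a higher level (0.98 ± 0.18, adjusted p = 0.00542).

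Of the 3 tektins, which run as filaments inside the doublet wall, only Tekt1 passed among these tests. It read -0.36 and -0.57 in derivation 1, 0.87 and 0.42 in derivation 2 and 1.83 and 1.45 in derivation 3, without overlap (2.11 ± 0.24, adjusted p = 0.000369, limma). Tekt4 read -0.66 and -0.74, 0.56 and -0.27, and 0.46 and -0.13, so that derivation 1 was again lowest, but it missed the threshold (0.86 ± 0.31, adjusted p = 0.095). Tekt2 read -0.19 and -0.28, 0.31 and -0.62, and 0.10 and -0.44, and its derivations overlapped (0.06 ± 0.32, adjusted p = 0.98). A different response of the 3 tektins was not tested.

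Of the 9 dynein arm genes, 8 were tested and 3 passed. Dnali1, a light intermediate chain of inner arms, read -0.97 and -0.80 in derivation 1, 1.47 and 0.60 in derivation 2 and 1.5 and 1.19 in derivation 3. It was the dynein gene with the greatest difference, 4.69-fold (2.23 ± 0.29, adjusted p = 0.00052, limma). Dnaic2, an intermediate chain of outer arms, read 1.41 and 1.42, 2.41 and 2.17, and 2.35 and 2.41, and only derivation 1 stood apart (0.97 ± 0.17, adjusted p = 0.0026). The inner arm heavy chain Dnah7b, which has close paralogs whose reads may be shared, read 2.44 and 2.49, 2.81 and 3.15, and 3.28 and 3.38 (0.87 ± 0.14, adjusted p = 0.00255). Of the 5 others, Dnah1, Dnah2 and Dnaic1 had both libraries of derivation 1 below both of derivation 3 and missed the threshold (adjusted p 0.0664 to 0.129). The outer arm heavy chains Dnah5 and Dnah11 overlapped between derivations 1 and 3.

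Spef2, of the central pair, read 0.34 and 0.49 in derivation 1, 1.94 and 1.65 in derivation 2 and 2.52 and 2.05 in derivation 3, without overlap (1.87 ± 0.21, adjusted p = 0.00024, limma). Spag17, the other central pair gene tested, was the single gene of the 28 with a lower mean in derivation 3 than in derivation 1. Its values were -0.45 and -0.04, -0.38 and 0.02, and -1.54 and -0.22, and the 3 numbers overlapped (-0.63 ± 0.36, adjusted p = 0.279). Spag17 had 9 to 40 reads per library, and its exons overlap Spag17os (6.56% of its exon bases) and Wdr3 on the other strand. The ruler proteins Ccdc39 and Ccdc40 both passed and differed in size. Ccdc40 read 0.91 and 1.05, 2.41 and 2.17, and 2.71 and 2.74 (1.75 ± 0.17, adjusted p = 0.000101). Ccdc39 read 2.67 and 2.69, 2.96 and 3.19, and 3.17 and 3.13, a 1.39-fold difference near the threshold (0.47 ± 0.13, adjusted p = 0.0442), and 34.2% of its exon bases overlap Ttc14 on the other strand, whose reads this unstranded kit cannot tell apart. Iqcg, of the nexin-dynein regulatory complex, read 2.30 and 2.26, 3.30 and 3.30, and 3.68 and 3.64 (1.38 ± 0.12, adjusted p = 6.19e-05), with 52.8% of its exon bases shared with Lrch3 on the other strand.

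Zmynd10, which helps to assemble dynein arms before transport, read -1.19 and -2.32 in derivation 1, -0.91 and -1.33 in derivation 2 and -0.18 and -0.09 in derivation 3 (1.62 ± 0.42, adjusted p = 0.0416, limma). Kif9, a kinesin of motile cilia, read 0.75 and 0.93, 1.85 and 1.42, and 2.38 and 2.16 (1.44 ± 0.20, adjusted p = 0.00134). The means of both genes followed the order 1, 2, 3, but derivations 1 and 2 of Zmynd10 overlapped. Meig1, known from spermatogenesis, read -2.19 and -1.32, -1.08 and -0.54, and 0.29 and -0.09 (1.86 ± 0.41, adjusted p = 0.0192). Tppp3 read 2.45 and 2.65, 3.17 and 2.74, and 3.56 and 3.03 (0.75 ± 0.17, adjusted p = 0.0244). Derivation 1 of Tppp3 was lowest while derivations 2 and 3 overlapped. Mlf1 read 1.33 and 1.05 in derivation 1, 1.34 and 1.55 in derivation 2 and 2.05 in both libraries of derivation 3, with derivations 1 and 2 close together and derivation 3 above them (0.86 ± 0.19, adjusted p = 0.0183). The call depended on single libraries in 5 genes. Ccdc39 lost it without either library of derivation 1 or either library of derivation 3 (differences of 0.39 to 0.55). Zmynd10 lost it without either library of derivation 3 or the aged library of derivation 1 (1.13 to 2.05). Tppp3 lost it without the young adult library of derivation 1 or 3 (0.41 and 0.54), Mlf1 without either library of derivation 3 (0.84 and 0.88), and Meig1 without the young adult library of derivation 3 (1.31).

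By a count that needs no test, both libraries of derivation 1 lay below both of derivation 3 in 23 of the 28 genes tested, against 36.6% of all genes tested. The reverse held for 0 of the 28 and 31.4% of all genes tested. Both libraries of derivation 1 lay below both of derivation 2 in 23 of the 28, against 23.2%, and both of derivation 2 below both of derivation 3 in 14, against 30.7%. The 12 genes below the filter were not ranked, since the value given to a gene with no read depends on the size of the library.

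**Figure D2:**
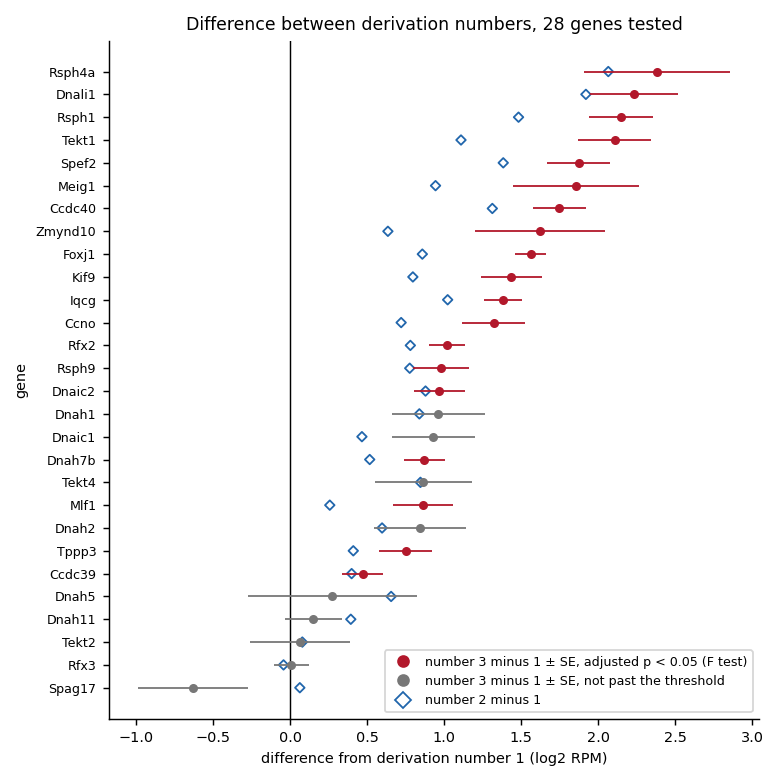
Difference from derivation number 1 on the log2 RPM scale for the 28 genes tested, as the mean of both ages, with number 3 minus 1 and its SE as circles and number 2 minus 1 as diamonds. The 19 red genes passed the F test and lie between 0.47 (Ccdc39) and 2.38 (Rsph4a), and Spag17 lies lowest at -0.63.

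The other genes of the pathway were read from lists of the same kind. Of 65 further motile cilia genes, 43 were tested and 19 passed, all higher in derivation 3, with a median difference of 0.82. The largest were Wdr16 (3.65), Capsl (3.16), Ccdc114 (3.03), Wdr52 (2.99), Ccdc135 (2.59) and Drc1 (2.55). Among the others, Enkur, Nme5, Rsph10b, Dnah9, Ttc25, Ccdc78, Cetn4, Spa17, Lrrc48, Wdr78, Dnaaf3 and Heatr2 were higher by 0.42 to 1.98. Of 46 genes of intraflagellar transport and the transition zone, which primary cilia also use, 46 were tested, 5 passed (10.9%, below the 22.0% of all genes) and the median was 0.18. These 5, Ift122, Cc2d2a, Kifap3, Dync2li1 and Tctn2, were higher in derivation 3 by 0.41 to 0.50. Of 8 further RFX genes, 6 were tested and 1 passed (16.7%, also below the share of all genes), Rfx5, which was lower by 0.42. Whether the lists differ from each other was not tested.

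Markers of cell types were read between derivations in the same way, against the 22.0% of all genes that passed. Of the 8 NSPC markers, 5 passed, among them Sox2, Msi1 and Olig2, higher by 0.29 to 0.49 in derivation 3, and Fabp7, lower by 0.80, and the summed RPM of the 8 was 4396 to 4724 in derivation 1, 4019 to 4121 in derivation 2 and 3411 to 3532 in derivation 3. Of 12 ependymal markers, 9 were tested and 4 passed, Foxj1, Aqp4 (0.83) and Ccdc153 (1.81) higher and Cd24a lower (-0.61), with sums of 3849 to 3856, 3002 to 3903 and 3505 to 3878. Ccdc153 had 9 to 32 reads, Fam183b 1 to 14, and Sntn 0 in every library. The oligodendrocyte lineage list had 6 of 8 past the threshold, 5 of them lower in derivation 3, and its sum was highest in derivation 2, at 84.8 to 97.1 RPM against 56.5 to 61.2 in derivation 1 and 55.6 to 58.6 in derivation 3. Of the astrocyte markers 2 of 6 tested passed, Aqp4 and Slc1a3 (0.64), with sums of 1723 to 1897, 1683 to 2245 and 1859 to 2139 in derivations 1 to 3, and Gjb6 at 0 throughout. The neuronal list passed in 0 of 5 tested (3 with an unadjusted p under 0.05) and summed to 9.38 to 10.1 RPM in derivation 1, 12.6 to 12.7 in derivation 2 and 13 to 16.2 in derivation 3. Choroid plexus, microglial, endothelial and pericyte markers summed to at most 3.30, 7.59, 2.93 and 1.07 RPM in these 6 libraries, with 0 of the 7 tested past the threshold (2 with an unadjusted p under 0.05). The part of these cell types in the difference between derivations was not tested.

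With age the 40 genes showed no call. In limma without a replicate block, 0 of the 28 tested passed and 0 had an unadjusted p under 0.05, while over all 14858 genes 0 passed (0.00%) and 258 had an unadjusted p under 0.05. edgeR called 0 genes and DESeq2 called 4, none of them among the 28. The median difference (aged minus young adult) was -0.06 over the 28 genes and 0.00 over all genes. A lower mean in aged NSPCs was found in 19 of the 28 and in 7346 of all 14858 genes. The median over these genes turned sign with single libraries, from -0.48 without the young adult and 0.23 without the aged library of derivation 1 to 0.20 without the young adult and -0.31 without the aged library of derivation 3, and was 0.03 without the young adult and -0.13 without the aged library of derivation 2. Foxj1 was 5.84 ± 0.85 (SD, n = 3) in young adult and 5.77 ± 0.72 in aged NSPCs, Ccno 1.29 ± 0.77 and 1.31 ± 0.55, Rfx2 3.41 ± 0.54 and 3.44 ± 0.52, and Rfx3 5.13 ± 0.15 and 5.26 ± 0.11. For Foxj1, Ccno and Rfx2 the difference between ages was smaller than the SD in either age, and for Rfx3 (0.13) it was close to it.

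The 5 genes with the smallest p for age were Tekt2, Spag17, Dnah5, Dnah11 and Tekt4, each with an adjusted p of 1.00 (limma). Tekt2 was 0.07 ± 0.25 (SD, n = 3) in young adult and -0.45 ± 0.17 in aged NSPCs, and the 3 aged libraries lay below the 3 young adult ones (difference -0.52 ± 0.27, SE). Of its exon bases, 25.7% overlap Gm12945 on the other strand. Spag17 was -0.79 ± 0.65 and -0.08 ± 0.12, again without overlap, in the other direction (0.71 ± 0.37). Dnah5 was -1.88 ± 0.21 and -1.16 ± 0.87, with the aged library of derivation 2 highest at -0.27 and the ages overlapping. Dnah11 was 1.80 ± 0.30 and 1.52 ± 0.10, and Tekt4 0.12 ± 0.68 and -0.38 ± 0.32, and both overlapped between ages. Among the 28 genes tested, the aged libraries lay entirely below the young adult ones in 1, Tekt2, and entirely above in 1, Spag17, against 2.05% and 3.14% of all genes tested.

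Within each derivation number the age difference was small and of mixed sign for most of these genes. With the number as a block, 0 of the 28 genes passed while 74 of all genes did (0.498%). An unadjusted p under 0.05 was found in 2 of the 28, Rsph1 (-0.69, adjusted p = 0.138, limma) and, in the other direction, Spag17 (0.71, adjusted p = 0.534, limma). The share of all genes with such a p in this fit is not given here, so these 2 have no background beside them. Rsph1 was lower in the aged library of each pair, by 0.65, 0.76 and 0.65 in derivations 1 to 3 and by 0.50 in C57BL/10, and was singled out after its values were seen. In all 4 pairs the aged library was the lower one in 6 of the 28 genes tested (Rsph1, Rsph4a, Tekt1, Tekt4, Dnah11 and Iqcg) and the higher one in 2 (Dnah7b and Dnaic1), against 10.4% and 12.2% of all genes tested. For Iqcg the differences within the derivations were near 0, at -0.04, 0.00 and -0.04.

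**Figure D3:**
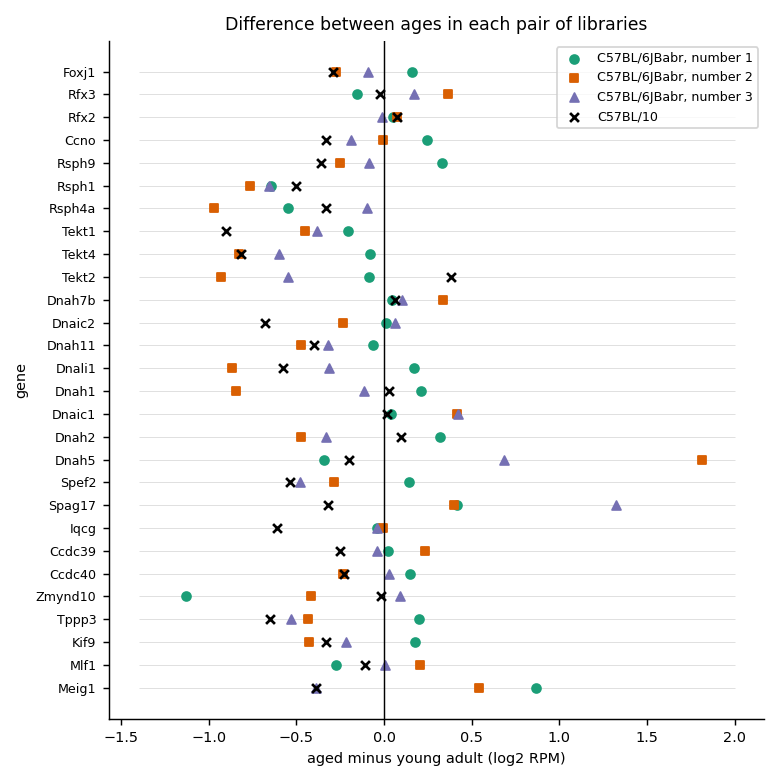
Aged minus young adult difference (log2 RPM) of the 28 genes tested in each pair of libraries, with the 3 derivation numbers as coloured symbols and C57BL/10 as crosses. Rsph1 lies between -0.76 and -0.50 in the 4 pairs, while Dnah5 runs from -0.34 in number 1 to 1.82 in number 2.

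In C57BL/10 the programme lay near the upper derivations. The summed RPM of the 40 genes was 268 in the young adult and 223 in the aged library, against 124 and 125 in derivation 1 of C57BL/6JBabr and 253 and 241 in derivation 3. Both C57BL/10 libraries lay above both of derivation 1 in 28 of the 28 genes tested for age, against 51.1% of all genes tested. These same data had already shown derivation 1 to be lowest in most of the 28 genes, so 51.1% is not a like background. Both C57BL/10 libraries lay above all 6 C57BL/6JBabr libraries in 8 of the 28, against 31.4%. Foxj1 read 6.40 and 6.11 in C57BL/10 (young adult, then aged), between derivations 2 and 3. Rfx2 read 3.48 and 3.55, below derivations 2 and 3 and above derivation 1, and Ccno 1.24 and 0.90, between derivations 1 and 2.

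Of 29 of the 40 genes tested between the strains, 2 passed (limma, adjusted p under 0.05), against 29.7% of all 14828 genes tested. The model held age and strain but no derivation number, so differences between derivations entered the SE, which was 0.76 for Rsph4a and 0.10 for Rfx3. Rsph4a had 4 to 25 reads per library and Rfx3 535 to 1600, so these 2 genes also differ in counting error. How much of the SE came from the derivations was not tested, and the low share of calls was not read as small differences. Ccdc39 read 3.78 and 3.53 in C57BL/10 and 2.67 to 3.19 in C57BL/6JBabr, without overlap (0.69 ± 0.18, SE, adjusted p = 0.0208). Rfx3 read 5.59 and 5.56 in C57BL/10 and 4.98 to 5.34 in the others, without overlap (0.38 ± 0.10, adjusted p = 0.0214). Both calls were lost in edgeR, with 0 of the 29 called, and DESeq2 called 1 of them. The scale matters here, since the median of all genes was 0.17 higher in C57BL/10 on log2 RPM and -0.01 after the scaling of edgeR. The median over the 29 genes was 0.65 on log2 RPM and 0.37 in edgeR, with 27 and 23 of them higher in C57BL/10. Over all 14828 genes, 10557 were higher on log2 RPM, and the count in edgeR is not given here. With quantile normalization the median over the 29 genes was 0.91, against 0.20 over all genes. The next genes by p were Tekt2 (0.70 ± 0.28), Dnah11 (0.44 ± 0.18) and Spef2 (1.26 ± 0.55), with adjusted p of 0.0876 to 0.111 in limma. Spef2 read 3.02 and 2.49 in C57BL/10, beside 2.52 and 2.05 in derivation 3 and 0.34 and 0.49 in derivation 1. Tekt2 read 0.32 and 0.70 and Dnah11 2.30 and 1.90 in C57BL/10.

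The age difference was not shown to depend on strain. With 1 C57BL/10 library per age, whose spread was assumed to equal that of C57BL/6JBabr, 0 of the 29 genes passed a test of age by strain, and 1 of all genes did (0.00674%). Without a replicate block 0 of the 29 had an unadjusted p under 0.05, and with it 2 had, Iqcg (-0.58, adjusted p = 0.481, limma) and Dnaic2 (-0.63, adjusted p = 0.727, limma). The smallest p belonged to Tekt2 (interaction 0.90 ± 0.51), Spag17 (-1.03 ± 0.71), Dnah5 (-0.92 ± 0.95), Dnaic2 (-0.63 ± 0.68) and Ccdc39 (-0.32 ± 0.37), each with an adjusted p of 1.00 in limma. For the fit with the block, the share of all genes with an unadjusted p under 0.05 is not given here. Foxj1, Ccno, Rfx2 and Rfx3 differed between ages by -0.29, -0.33, 0.07 and -0.03 in C57BL/10.

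Most TSS windows of the programme held H3K4me3, the mark of active or poised gene starts. Each gene was represented by a window of 2.5 kb to either side of the start with the highest H3K4me3. A window of this width can also hold the start of a neighbouring gene. Exons of Iqcg, Dnali1 and Dnaic1, for example, overlap those of Lrch3, Gnl2 and Enho on the other strand. Whether the mark belonged to the listed gene was not tested. Log2 RPM of H3K4me3 was above 1 in both ages in 34 of the 40 windows, against 61.0% of all 25888 genes, with medians of 3.65 (young adult) and 3.79 (aged) (3.95 and 4.08 over all genes). The Input of the same windows was 0.33 to 1.54. The highest values belonged to Kif9 (6.09 in young adult and 6.24 in aged NSPCs), Rfx3 (6.07 and 6.37) and Iqcg (5.91 and 6.09), and Foxj1 had 5.00 and 5.13. The 28 genes tested in RNA had a median of 4.36 in young adult NSPCs and the 12 others 2.74. Hydin, which had at most 5 reads, still had H3K4me3 of 3.72 and 3.78, and Ak8, with at most 8 reads, 4.13 and 4.45. Across the 40 genes H3K4me3 and RNA per kilobase had a Pearson correlation of 0.55 and a Spearman correlation of 0.59, given as a description over genes that share the same libraries. Over the 28 genes tested the values were 0.44 and 0.40.

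H3K27me3, the mark of Polycomb repression, was above 1 in both ages in 17 of the 40 windows, against 32.1% of all genes. Both marks were above 1 in 14 windows, against 18.2%. The cut of 1 lay within the Input of the 40 windows, 0.33 to 1.54, so a window counted here need not exceed its Input. In Tekt2, for example, the aged value lay below Input. These counts are therefore not numbers of promoters shown to carry H3K27me3. Dnah11 was highest, at 4.35 in young adult and 4.72 in aged NSPCs, together with H3K4me3 of 4.74 and 4.75, and its exons overlap those of Cdca7l on the other strand. Dnah5 had 4.28 and 4.07 with little H3K4me3, 1.59 and 1.12. Ccno combined 3.51 and 3.71 with H3K4me3 of 5.02 and 5.25, Mlf1 had 2.30 and 2.70, Rfx2 2.05 and 2.15, and Hydin 2.08 and 2.09. Ccno and Rfx2, which varied between derivations, carried both marks in the pooled cells. Foxj1 (-0.16 and -0.29) and Rfx3 (-0.79 and -1.19) had less H3K27me3 than their Input (1.26 and 1.13, and 0.72 and 0.83). The files give 1 value per age, so that marks could not be compared between derivations.

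Between ages the marks differed little at these promoters. A window counted as changed where the ages differed by at least 1.5-fold and either exceeded 1. By this rule 0 of the 40 windows changed in H3K4me3, against 0.212% of all genes, and 1 changed in H3K27me3, against 1.5%. That window was Zmynd10, at 1.26 in young adult and 0.44 in aged NSPCs, beside Input of 0.98 and 1.30. There is 1 value per age and so no test. After Input was subtracted Zmynd10 stood at 0.28 and -0.86, a larger difference (-1.14 against -0.82), but neither value exceeded 1 and the rule was no longer met. The median difference was 0.12 for H3K4me3 (0.15 over all genes) and -0.02 for H3K27me3 (-0.02 over all genes). For H3K4me3 the widest differences were in Tekt2 (-0.03 and -0.91), Ak7 (0.25 and -0.44), Spag17 (0.12 and -0.44), Efcab1 (0.85 and 1.38) and Dnah5, and the first 3 of these were below Input in both ages. For H3K27me3 they were in Dnah7b (0.61 and -0.76), Zmynd10, Armc4 (0.56 and -0.14), Iqcg (-0.12 and 0.55) and Meig1 (0.13 and -0.42), where the young adult value of Zmynd10 alone exceeded 1.

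**Figure D4:**
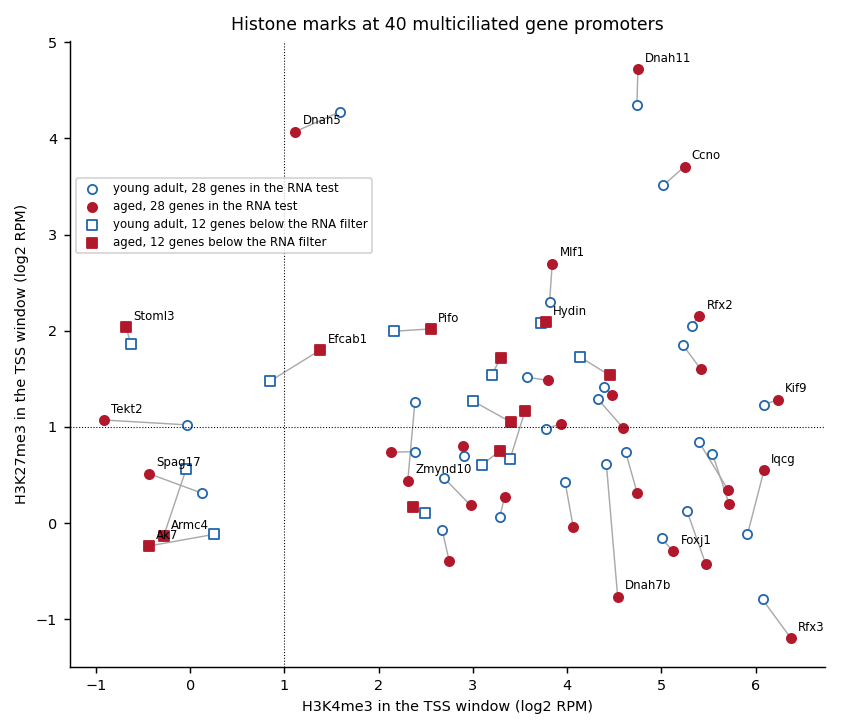
H3K4me3 against H3K27me3 (log2 RPM) in the TSS window of each of the 40 genes, with open symbols for young adult and filled symbols for aged NSPCs, a line joining the ages, and dotted lines at 1. Dnah11 and Ccno lie high on both axes, Dnah5 is high in H3K27me3 with H3K4me3 of 1.59 and 1.12, and Foxj1 and Rfx3 have H3K4me3 alone.

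Methylation of the same windows was measured in each derivation. oxBS reads 5-methylcytosine (5mC), and BS reads 5mC together with 5-hydroxymethylcytosine. All 40 windows had at least 20 oxBS and 33 BS calls in every library. Summed over the 40 windows, 34.5%, 34.7% and 36.5% of oxBS calls were methylated in young adult derivations 1 to 3 and 35.4%, 36.1% and 36.5% in the aged ones. In BS the values were 36.3%, 39.4% and 37.9%, and 34.9%, 37.4% and 37.8%. In each age the values of derivation 1 were the lowest of the 3 in both assays as over all CpG calls of the libraries (70.5%, 70.8% and 71.8% in young adult oxBS), but not over the windows of all genes, where young adult oxBS was 30.3%, 29.8% and 30.4% and derivation 1 was the lowest in neither age of either assay. These orders were not tested. In young adult NSPCs the median oxBS level was 28.9% over the 28 genes tested in RNA and 46.0% over the 12 others.

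By age, 0 of the 40 windows passed in oxBS or BS at an adjusted p under 0.05 and 10 percentage points (quasi-binomial model), as did 0 of 23798 and 0 of 24545 windows of all genes (0.00% in both). An unadjusted p under 0.05 was found in 3 of the 40 windows in oxBS and 1 in BS, against 5.43% and 4.86% of all windows. In oxBS these were Mlf1, Tekt1 and Spef2, all higher in aged NSPCs. Mlf1 was 14.3%, 16.5% and 28.4% in young adult and 32.1%, 53.7% and 41.7% in aged derivations 1 to 3, on 41 to 115 calls. Tekt1 was 33.8%, 28.1% and 27%, and 49.3%, 48.0% and 38.7%, on 62 to 111 calls. Spef2 was 41.7%, 45.9% and 50.0%, and 67.7%, 68.6% and 64.3%, on 28 to 61 calls. In each of the 3 windows the ages did not overlap, and each adjusted p was 0.911 in the quasi-binomial model. The windows were picked by their p, and the share of all windows without overlap was not counted, so the lack of overlap is no separate result. In BS the ages overlapped in all 3 windows. Mlf1 had 17.5% to 36.1% in young adult and 22.7% to 35.7% in aged NSPCs. Tekt1 had 27.7% to 43.6% and 35.4% to 37.4%, and Spef2 52.5% to 62.8% and 44.6% to 53.6%. With calls pooled, BS was lower in aged NSPCs in Spef2 and slightly higher in Mlf1 and Tekt1. In each aged derivation oxBS lay above BS in all 3 windows. BS reads 5mC as well, so this order cannot hold for true levels. Higher 5mC in aged NSPCs is therefore not shown for these windows, and the cause was not tested.

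In BS the Foxj1 window was 31.1%, 21.7% and 28.8% methylated in young adult and 43.8%, 34.0% and 41.7% in aged NSPCs, on 132 to 257 calls, without overlap and with an adjusted p of 1.00 in the quasi-binomial model. In oxBS the same window was 25.8%, 28.3% and 24.8%, and 23.5%, 38.8% and 18.2%, so the ages overlapped in that assay. Foxj1 RNA differed between ages by less than the SD between derivations. Ak8 was 45.6%, 32.1% and 35.8%, and 31.0%, 32.8% and 24.4%, and Stoml3 82.0%, 80.2% and 79.4%, and 79.3%, 74.4% and 68.0%, both with an adjusted p of 1.00. Ak8 overlapped between ages and Stoml3 did not, by a margin under 1 percentage point. Foxj1, Ak8 and Stoml3 were likewise picked by their p, with no share of all windows to set beside the overlap. The median difference between ages was 1.45 percentage points in oxBS and -0.74 in BS over the 40 windows, against 0.26 and 0.23 over all windows.

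**Figure D5:**
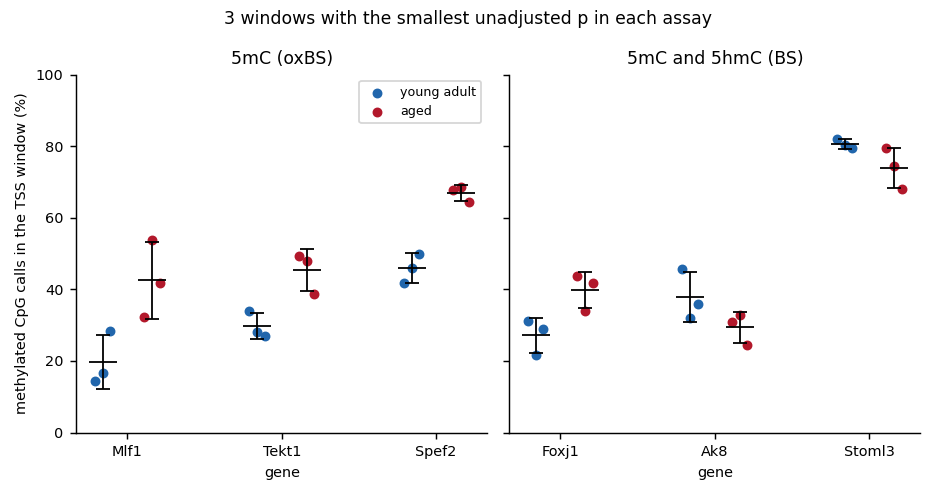
Methylated share of CpG calls (%) in the TSS windows with the smallest unadjusted p for age, 3 in oxBS (left) and 3 in BS (right), with each dot a derivation, the bar its mean and the whiskers the SD (n = 3). Mlf1, Tekt1 and Spef2 lie higher in aged NSPCs in oxBS, and Foxj1 in BS, and none passed the threshold.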

How the data were processed

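RNA, ChIP, BS and oxBS libraries of young adult and aged NSPCs were read from deposited tables in GRCm38. The authors computed log2 RPM per gene and library for RNA, and log2 RPM per TSS window and age over 3 replicates for ChIP. The authors deposited counts of methylated and unmethylated calls per CpG, and a deposited percent per site, which was not used. The submitters' processing notes name STAR 2.3.0, Bowtie2 2.2.5, Bismark 0.12.5 and Trim Galore 0.4 and 0.3.7. The sources used here do not state the counting settings.

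Whole reads were recovered from the steps of low values, and of the values low enough for this 100% were whole to a tolerance of 0.02. A gene without a read held the value of 0.9 reads. Ages, derivation numbers and strains were compared with limma 3.58.1 on log2 RPM (mean-variance trend, Benjamini-Hochberg adjustment over all genes tested, mean log2 RPM of at least -2), in R 4.3.3. Samples labelled as separate derivations were replicates. edgeR 4.0.16 and DESeq2 1.42.0 on whole reads, other filters and scalings, a replicate block and fits without each library were alternatives. Young adult and aged libraries share numbers 1 to 3 in the labels. Their deviations from the age mean correlated by 0.66, 0.18 and 0.72 across 14858 genes, all over 0.1. On this basis libraries with 1 number were treated as pairs. The tests between numbers and with a block used the same RNA values, so the correlations are no separate evidence of pairing. TSS windows of 5000 bp needed 10 calls in every library, and ages were tested in quasi-binomial models whose dispersion was moderated across windows. The scripts were tested on simulated data. Intervals and floors cover counting error only.

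Exon lengths and overlaps came from GENCODE vM21 and promoters from RefSeq. The genes and lists were chosen with earlier results of these data known, so no p adjusted over the list alone is given. Values per library are given for the 4 regulators, each gene past a threshold, the 5 genes with the smallest p in each RNA comparison and 3 in each methylation comparison, and, for marks, the 5 highest in H3K27me3 and the 5 largest differences. Some genes of the lists are not reported here by name. Python 3.11.15, numpy 2.4.6 and pandas 2.3.3 were used.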

Additional observations from a re-analysis of the deposited data

How the results depend on the processing

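The 19 of 28 genes called between derivations were 16 to 20 with no filter (of 40), a filter at a mean of 0 (of 21), quantile normalization or edgeR, 14 with DESeq2, and 12 without the mean-variance trend, where all genes called fell from 3263 to 698. Shares of all genes for the filter at a mean of 0, quantile normalization and DESeq2 are not given here. Leaving out a library gave 14 to 23, and 1474 to 6831 over all genes. Between strains the 2 calls became 5 with quantile normalization, 0 with edgeR and 1 with DESeq2, where all genes called went from 4405 to 2572 and 2868, and were 2 to 2 without a library. For age, and for age by strain, 0 genes were called under every alternative run, 0 to 0 without a library. The replicate block called 0 of them in both, while over all genes the replicate block called 74 for age (83 in edgeR) and 36 for age by strain (2 in edgeR, chosen after seeing the data), so pairing changed no call on the 40 genes. The methylation calls stayed at 0 under each alternative, the replicate block and 0 to 0 without a library included. H3K4me3 windows changed were 2 with Input subtracted and 1 with quantile normalization, against 0, and H3K27me3 windows were 0 at 2-fold and 0 with Input subtracted, against 1. With Input subtracted that window, Zmynd10, differed by -1.14 against -0.82 and fell under the level of 1 that the rule needs. The shares of all windows changed under these alternative rules are not given here, so the counts have no background beside them. Signs turned in small differences of the regulators that passed no test. For age, Ccno was -0.030 in edgeR, -0.036 in DESeq2, -0.070 with all 8 libraries and -0.014 with the replicate block in edgeR, against 0.02. Between derivations, Rfx3 was -0.0098 with quantile normalization, -0.023 in edgeR and -0.023 in DESeq2, against 0.01. Between strains, Ccno was 0.036 with quantile normalization, against -0.23, and Rfx2 was -0.14 in edgeR and -0.13 in DESeq2, against 0.09. Without single libraries the age difference ran from -0.53 to 0.31 in Foxj1, -0.38 to 0.39 in Ccno and -0.26 to 0.33 in Rfx2, the derivation difference from -0.21 to 0.22 in Rfx3, and the strain difference from -0.052 to 0.19 in Rfx2. The age by strain difference ran from -0.61 to 0.24 in Foxj1, -0.72 to 0.048 in Ccno and -0.26 to 0.34 in Rfx2. The cause of these shifts was not tested. Of the 40 genes, 12 fell below the chosen filter on low values and were left out of the main tests of age and derivation. Ccdc113 alone of these entered the strain comparison.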

Other observations

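Among the further motile cilia genes, 3 were far lower in C57BL/10 than in C57BL/6JBabr NSPCs. Rsph3a and Rsph3b, which encode near-identical radial spoke proteins, stood at 4.67 to 5.23 and 4.54 to 5.15 log2 RPM in the 6 C57BL/6JBabr libraries. In C57BL/10 (young adult, then aged) Rsph3a was 2.32 and 1.89 and Rsph3b 1.17 and 1.19. The differences were -2.94 ± 0.15 (SE, adjusted p = 2.52e-07, limma) and -3.74 ± 0.16 (adjusted p = 4.9e-08, limma). Reads of such similar genes may be divided between them by the counting. Dnah7a, an inner arm dynein heavy chain and close paralog of Dnah7b, had 25 to 97 reads per C57BL/6JBabr library and 2 and 4 reads in C57BL/10 (-3.95 ± 0.35, adjusted p = 1.76e-05, limma), while Dnah7b read 2.76 and 2.82 log2 RPM in C57BL/10, within the 2.44 to 3.38 of C57BL/6JBabr. In all, 7 of the 43 further motile cilia genes tested passed (16.3%), below the 29.7% of all genes, 4 of them higher in C57BL/10, among them Dnal1, Ropn1l and Ccdc151 by 0.62 to 0.92. With the scaling of edgeR 5 passed, 2 of them higher and 3 lower. Strain and facility cannot be told apart, and these genes were singled out after their values were seen.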
